A study of Mus musculus with 6 samples.

Results

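The microglial identity and leukocyte core genes were a set of 31 listed genes, of which 29 were found among the deposited rows as a transcript cluster annotated with that single symbol. For the 1 gene with a second transcript cluster, *Selplg*, the one with the higher mean over the 6 arrays was taken. *Bin2* and *Lyn* were matched to no row and are not analysed here. The rows numbered 41345 in all. The mice studied were 3 female NL-G-F·*Mutyh*-/- mice. These were homozygous for the NL-G-F knock-in allele of *App*, which carries the Swedish, Arctic, and Beyreuther/Iberian mutations on a humanized amyloid-*β* sequence under the endogenous *App* promoter, and they lacked *Mutyh*, the gene of an adenine DNA glycosylase. They were set against 3 female wild-type mice. All were 6 months old and perfused with saline before the hippocampus was taken, and 1 GeneChip Mouse Gene ST array was run per mouse. The strains were kept as separate inbred lines, and the wild-type arrays had been used in an earlier series, so strain, series, knock-in, and loss of *Mutyh* cannot be told apart in these 6 arrays.

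Microglia are the resident macrophages of the brain. They descend from yolk sac progenitors and share with all blood-derived leukocytes a core of genes for membrane signalling and the actin cytoskeleton, much of it under the transcription factor PU.1. On top of this core they carry a smaller identity program, dependent on TGF-*β* signalling and on the transcription factor SALL1, that distinguishes them from other macrophages and is known to be turned down in microglia around amyloid plaques. The 31 genes were therefore read in 3 lists. The identity list held *Tmem119*, *Siglech*, *Sall1*, *Selplg*, *Cx3cr1*, *Olfml3*, *Gpr34*, and *Itgb5*. The myeloid list held *Aif1*, *Adgre1*, *Mpeg1*, *Lyz2*, *Cd33*, *Cd84*, *Cd86*, and *Lair1*. The leukocyte list held *Ptprc*, *Cd53*, *Laptm5*, *Cd52*, *Cd37*, *Lcp1*, *Coro1a*, *Dock2*, *Vav1*, *Nckap1l*, *Ptpn6*, and *Ikzf1* besides the 2 unmatched genes. *Tmsb4x*, the gene of the actin-binding peptide thymosin beta 4, is expressed in many brain cells and was kept apart.

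Values are log2 signals, and a difference is the NL-G-F·*Mutyh*-/- mean minus the wild-type mean. A transcript cluster was tested when its mean reached an intensity of 50 (5.64 as log2) in at least 1 group, which 27 of the 29 genes and 21159 transcript clusters in all did. *Cd86* and *Ikzf1* stayed below it in both groups. *App* itself was 11.83, 11.91, and 12.07 in NL-G-F·*Mutyh*-/- mice and 12.15, 12.05, and 11.97 in wild-type mice (adjusted *p* = 0.585, limma). *Mutyh* was 5.42 ± 0.05 in NL-G-F·*Mutyh*-/- mice and 5.28 ± 0.17 in wild-type mice (mean ± SD, n = 3 each), below the minimum in both, so the knockout cannot be read from its signal. Array medians ran from 5.65 to 5.66 in NL-G-F·*Mutyh*-/- mice and from 5.55 to 5.64 in wild-type mice, and the medians over tested transcript clusters from 7.20 to 7.21 in NL-G-F·*Mutyh*-/- mice and from 7.19 to 7.21 in wild-type mice.

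The listed myeloid and leukocyte genes lay higher in NL-G-F·*Mutyh*-/- hippocampi by more than the listed identity genes did. For the leukocyte list this excess, 0.26 in mean difference, was 0.12 among genes with both means above the intensity minimum, with overlapping groups. Between other leukocyte and other homeostatic genes it was 0.02, again with overlapping groups. All lists were chosen with earlier results of these data known. *Mpeg1* and *Lyz2* rose past the adjusted test, while the fractalkine receptor gene *Cx3cr1*, *Olfml3*, and *Sall1* differed by less than 0.10 on the log2 scale and *Tmem119* was at 92.3% of wild type. The median difference was 0.12 over the 8 identity genes, 0.48 over the 8 myeloid genes, and 0.38 over the 12 leukocyte genes, beside 0.02 over all tested transcript clusters. Of the 27 tested genes, 2 were higher and 0 lower at an adjusted *p* under 0.05 (limma with Benjamini-Hochberg adjustment), where 0.0567% of all tested transcript clusters were higher and 0.00473% lower. The difference was above 0 in 27 of the 29 measured genes, and in 56.8% of all tested transcript clusters. At an unadjusted *p* under 0.05, the threshold of the study's methods, 17 were higher and 0 lower, where 8.88% of all tested transcript clusters were higher and 4.75% lower. Higher calls were 65.1% of all such calls on the values as given, 39.2% after the median of all transcript clusters was subtracted from each array, and 50.4% with quantile normalization, and under each of these alternatives 14 genes of the set were higher and 0 lower. These 17 were 3 of 8 identity genes, 6 of 7 tested myeloid genes, and 8 of 11 tested leukocyte genes. Of these leukocyte genes, *Ptprc*, *Laptm5*, *Cd52*, and *Dock2* had wild-type means under the intensity minimum and were tested only through their NL-G-F·*Mutyh*-/- means. With both means above the minimum, 13 genes were higher, namely 3 of 8 identity, 6 of 7 myeloid, and 4 of 7 leukocyte genes. In 20 of the 29 genes, 18 of them among the 27 tested, every NL-G-F·*Mutyh*-/- array lay above every wild-type array, and in 0 below. Of all tested transcript clusters, 13.9% were higher and 8.11% lower in this way. With both means above the minimum, 14 of 23 genes were higher without overlap. With each array centred on its median over all transcript clusters, 14 tested genes were. More microglia and more RNA per microglial cell cannot be told apart in whole hippocampus.

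**Figure D1:**
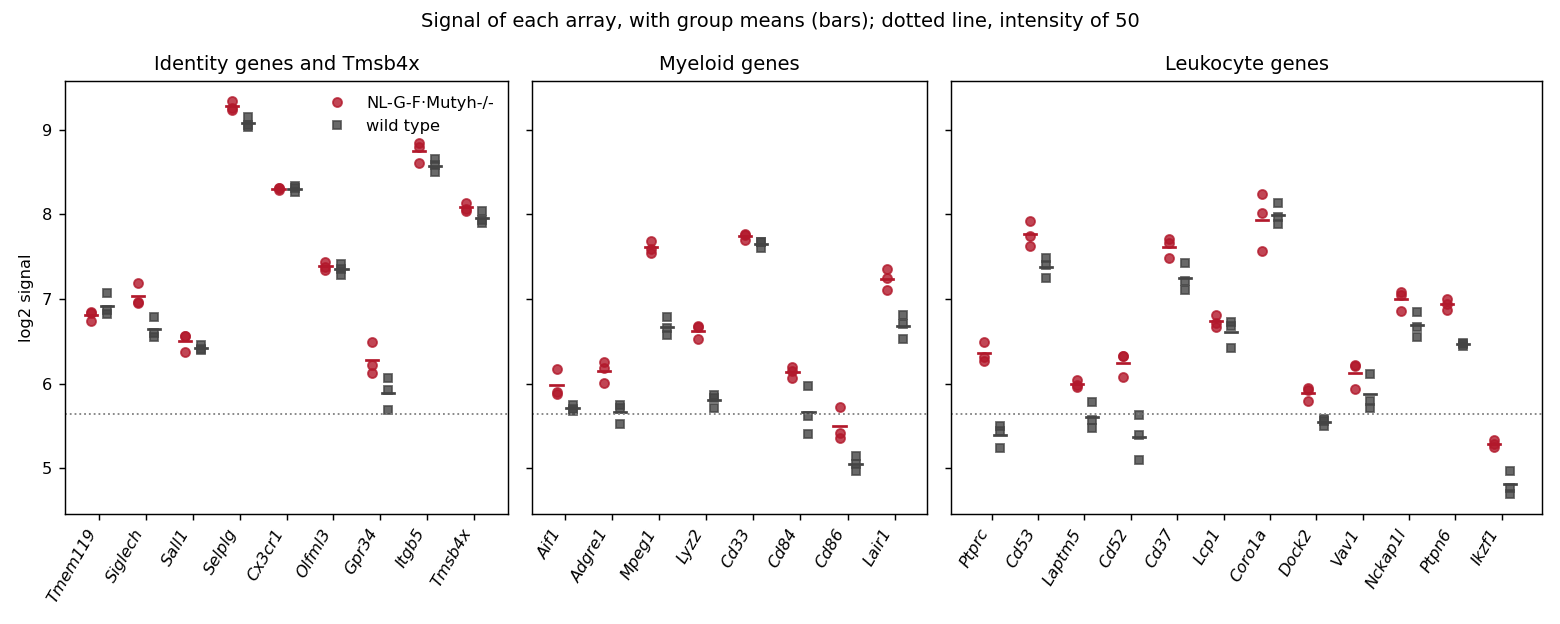
Log2 signal (vertical axis) of each array for the 29 genes, with NL-G-F·*Mutyh*-/- mice as circles left of wild-type mice as squares and group means as bars (n = 3 mice each). The dotted line is an intensity of 50, and the groups separate for *Mpeg1*, *Lyz2*, *Ptprc*, and *Ptpn6* but overlap for *Cx3cr1* and *Olfml3*.

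Promoter sequence was read for 22 of the 29 genes from RefSeq windows of 250 bases before to 50 bases after a transcription start (GRCm38.p6, 28 windows). The letters of a PU.1 core, GAGGAA on either strand, were found in 39.3% of these windows and in 28.3% of all 32851 windows. By gene, they were present in 1 of 5 identity genes with a window (*Siglech*), 4 of 6 myeloid genes (*Aif1*, *Cd33*, *Cd84*, *Lair1*), and 6 of 10 leukocyte genes (*Cd37*, *Cd53*, *Dock2*, *Laptm5*, *Ptprc*, *Vav1*). Genes with several windows (*Sall1*, *Coro1a*, *Ikzf1*, *Lcp1*, and *Ptprc*) had more chances of a match. The share of all genes with a match was not computed, so the counts by gene cannot be set against the 28.3% of windows. The longer GAGGAAGT, which contains the core, was found in 3 windows of the set and in 3.2% of all windows, and all 3 belonged to leukocyte genes. The composite of PU.1 and IRF sites was in 0 of the 28 windows and 2.72% of all. A loose pattern was also searched, with the outer letters of a MEF2 site and any letters in its middle. It was in the windows of *Cx3cr1* and *Lair1* and 3.69% of all. Because the middle letters were left free, a match to this pattern need not be a MEF2 site. The windows with the longer site are shown with those of *Siglech* and *Cx3cr1*, identity genes with a high and a near-0 difference. Capitals mark the matched letters of these motifs on either strand, and a match is not evidence of binding.
Cd53 (leukocyte, chr3:106790100-106790399, minus strand): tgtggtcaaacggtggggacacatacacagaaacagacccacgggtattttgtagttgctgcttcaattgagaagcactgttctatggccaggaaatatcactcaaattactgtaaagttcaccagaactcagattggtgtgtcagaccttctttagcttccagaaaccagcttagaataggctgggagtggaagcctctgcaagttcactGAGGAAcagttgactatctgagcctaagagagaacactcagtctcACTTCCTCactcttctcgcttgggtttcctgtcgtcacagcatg
Cd37 (leukocyte, chr7:45238790-45239089, minus strand): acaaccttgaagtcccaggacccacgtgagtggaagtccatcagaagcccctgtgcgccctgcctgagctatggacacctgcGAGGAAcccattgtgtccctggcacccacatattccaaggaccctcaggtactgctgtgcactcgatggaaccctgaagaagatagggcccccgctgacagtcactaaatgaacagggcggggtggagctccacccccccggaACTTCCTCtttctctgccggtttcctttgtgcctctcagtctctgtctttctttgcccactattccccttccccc
Vav1 (leukocyte, chr17:57278850-57279149, plus strand): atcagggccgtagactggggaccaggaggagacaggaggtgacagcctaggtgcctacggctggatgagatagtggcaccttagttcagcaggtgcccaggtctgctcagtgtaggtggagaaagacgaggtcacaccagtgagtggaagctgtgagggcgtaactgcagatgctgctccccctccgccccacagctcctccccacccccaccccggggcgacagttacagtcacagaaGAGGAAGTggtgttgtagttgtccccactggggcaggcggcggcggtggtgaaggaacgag
Siglech (identity, chr7:55767934-55768233, plus strand): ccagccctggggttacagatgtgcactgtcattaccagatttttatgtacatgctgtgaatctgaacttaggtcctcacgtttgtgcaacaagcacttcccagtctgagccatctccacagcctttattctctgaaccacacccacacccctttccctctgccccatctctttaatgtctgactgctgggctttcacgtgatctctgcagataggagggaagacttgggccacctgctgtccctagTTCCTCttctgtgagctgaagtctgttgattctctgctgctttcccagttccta
Cx3cr1 (identity, chr9:120068247-120068546, minus strand): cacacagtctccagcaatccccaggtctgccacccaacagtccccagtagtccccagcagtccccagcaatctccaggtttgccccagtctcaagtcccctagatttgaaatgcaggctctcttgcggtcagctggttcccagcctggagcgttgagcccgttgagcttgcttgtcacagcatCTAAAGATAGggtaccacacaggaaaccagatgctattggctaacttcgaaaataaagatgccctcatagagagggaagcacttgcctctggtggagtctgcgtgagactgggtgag
In *Vav1* the first letter of the longer site lay 11 bases before the start, in *Cd37* the matched letters began 25 bases before it, and in *Cd53* they began at base 7 after it.

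Among the receptors of the identity list, *Cx3cr1*, whose product binds the neuronal chemokine fractalkine, was 8.31, 8.31, and 8.29 in NL-G-F·*Mutyh*-/- mice and 8.31, 8.33, and 8.26 in wild-type mice. Its 3 NL-G-F·*Mutyh*-/- values lay inside the wild-type range, and the 95% interval of the difference ran from −0.15 to 0.15 (limma), with a point value that changed sign in 4 of 16 alternative settings. *Gpr34*, encoding a lysophosphatidylserine receptor, was 6.12, 6.23, and 6.49 in NL-G-F·*Mutyh*-/- mice and 6.07, 5.92, and 5.69 in wild-type mice. The groups were separated by 0.06, less than the spread within either, and the difference of 0.39 had a standard error of 0.13 (adjusted *p* = 0.308, limma). *Siglech*, encoding a sialic acid-binding lectin that signals through DAP12, was 6.97, 6.95, and 7.19 in NL-G-F·*Mutyh*-/- mice and 6.78, 6.55, and 6.59 in wild-type mice. This was 131% of wild type, the highest difference of the list (0.39, 95% interval 0.15 to 0.63), and it did not pass the adjusted test (adjusted *p* = 0.222, limma).

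The other surface and secreted products of the identity list had differences between −0.12 and 0.19. *Tmem119*, encoding a membrane protein used as a microglial marker, was 6.84, 6.83, and 6.75 in NL-G-F·*Mutyh*-/- mice and 7.07, 6.87, and 6.82 in wild-type mice. It was the 1 gene of the 29 with a difference below 0 under every alternative, from −0.17 to −0.04, and the groups overlapped (adjusted *p* = 0.586, limma). *Olfml3*, encoding a secreted olfactomedin-like protein, was at 102% of wild type, with an interval from −0.13 to 0.20 and a sign that changed in 2 of 16 settings. The paper, in a fit that also held *App* knock-in mice with intact *Mutyh*, listed *Olfml3* as significantly higher than in wild-type mice. *Itgb5*, encoding the integrin *β*5 subunit, was at 113% of wild type (0.17, standard error 0.09), and its lowest NL-G-F·*Mutyh*-/- value fell within the wild-type range. *Selplg*, encoding the P-selectin ligand PSGL-1, was 9.34, 9.25, and 9.23 in NL-G-F·*Mutyh*-/- mice and 9.15, 9.05, and 9.03 in wild-type mice, without overlap. Its second transcript cluster did overlap (7.36, 7.43, and 7.33 in NL-G-F·*Mutyh*-/- mice and 7.51, 7.20, and 7.12 in wild-type mice), with a difference of 0.10 against 0.19 for the first, so the 2 rows do not give the same picture of this gene.

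*Sall1*, encoding the transcription factor that maintains the identity program, was 6.37, 6.56, and 6.56 in NL-G-F·*Mutyh*-/- mice and 6.41, 6.40, and 6.45 in wild-type mice. NL-G-F·*Mutyh*-/- replicate 1 lay below all wild-type values and the other two above them, and the interval of the difference, −0.11 to 0.26, included 0 (adjusted *p* = 0.683, limma). The lineage factor of the leukocyte list, *Ikzf1*, encoding the zinc finger protein Ikaros, was 5.29, 5.25, and 5.34 in NL-G-F·*Mutyh*-/- mice and 4.97, 4.76, and 4.70 in wild-type mice. All 6 values were below the intensity minimum, so it was not tested, although the groups did not overlap.

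*Mpeg1*, encoding the pore-forming protein perforin-2 of macrophages, was 7.54, 7.69, and 7.59 in NL-G-F·*Mutyh*-/- mice and 6.57, 6.65, and 6.79 in wild-type mice. The gap between the groups, 0.76, was wider than the range within either, and the gene ranked 10 by *p* among all tested transcript clusters (adjusted *p* = 0.0252, limma). *Lyz2*, encoding the lysozyme of myeloid cells, was 6.68, 6.66, and 6.53 in NL-G-F·*Mutyh*-/- mice and 5.87, 5.71, and 5.83 in wild-type mice. The gap was 0.66 and the rank by *p* 13 (adjusted *p* = 0.0364, limma). Both calls were lost with any 1 array left out, the adjusted *p* of *Mpeg1* then running from 0.0835 to 0.235 and that of *Lyz2* from 0.117 to 0.291 (limma). The differences themselves stayed between 0.89 and 1.00 for *Mpeg1* and between 0.77 and 0.88 for *Lyz2* over all settings.

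*Lair1*, encoding an inhibitory collagen receptor, was 7.36, 7.24, and 7.11 in NL-G-F·*Mutyh*-/- mice and 6.81, 6.70, and 6.53 in wild-type mice. It was at 147% of wild type, above every wild-type mouse in every NL-G-F·*Mutyh*-/- mouse (0.56, 95% interval 0.31 to 0.80, adjusted *p* = 0.179, limma). *Adgre1*, encoding an adhesion receptor used as a macrophage marker, was 6.26, 6.01, and 6.18 in NL-G-F·*Mutyh*-/- mice and 5.71, 5.75, and 5.53 in wild-type mice. Its wild-type values straddled the intensity minimum, and it was at 140.1% of wild type (adjusted *p* = 0.181, limma). *Aif1*, encoding the microglial stain target Iba1, was 5.91, 5.87, and 6.18 in NL-G-F·*Mutyh*-/- mice and 5.74, 5.67, and 5.70 in wild-type mice. Its 121% of wild type came from low signals, with NL-G-F·*Mutyh*-/- replicate 3 well above the other two (adjusted *p* = 0.309, limma).

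*Cd84*, encoding a self-binding receptor of the SLAM family, was 6.19, 6.07, and 6.15 in NL-G-F·*Mutyh*-/- mice and 5.41, 5.62, and 5.97 in wild-type mice. Its difference of 0.47 ran from 0.34 without wild-type replicate 1 to 0.62 without wild-type replicate 3, as the wild-type mice varied more for this gene (SD 0.28) than for any other of the set. *Cd86*, encoding a costimulatory ligand for T cells, was 5.36, 5.42, and 5.72 in NL-G-F·*Mutyh*-/- mice and 5.05, 5.15, and 4.96 in wild-type mice, without overlap but with both means below the intensity minimum. *Cd33*, encoding a sialic acid-binding inhibitory lectin and linked to the risk of Alzheimer's disease in humans, was the myeloid gene closest to wild type. It was 7.76, 7.70, and 7.77 in NL-G-F·*Mutyh*-/- mice and 7.68, 7.67, and 7.61 in wild-type mice, a difference of 0.09 with an interval from −0.06 to 0.24. The groups just failed to overlap, by 0.02, and the difference did not pass even the unadjusted threshold (adjusted *p* = 0.564, limma).

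**Figure D2:**
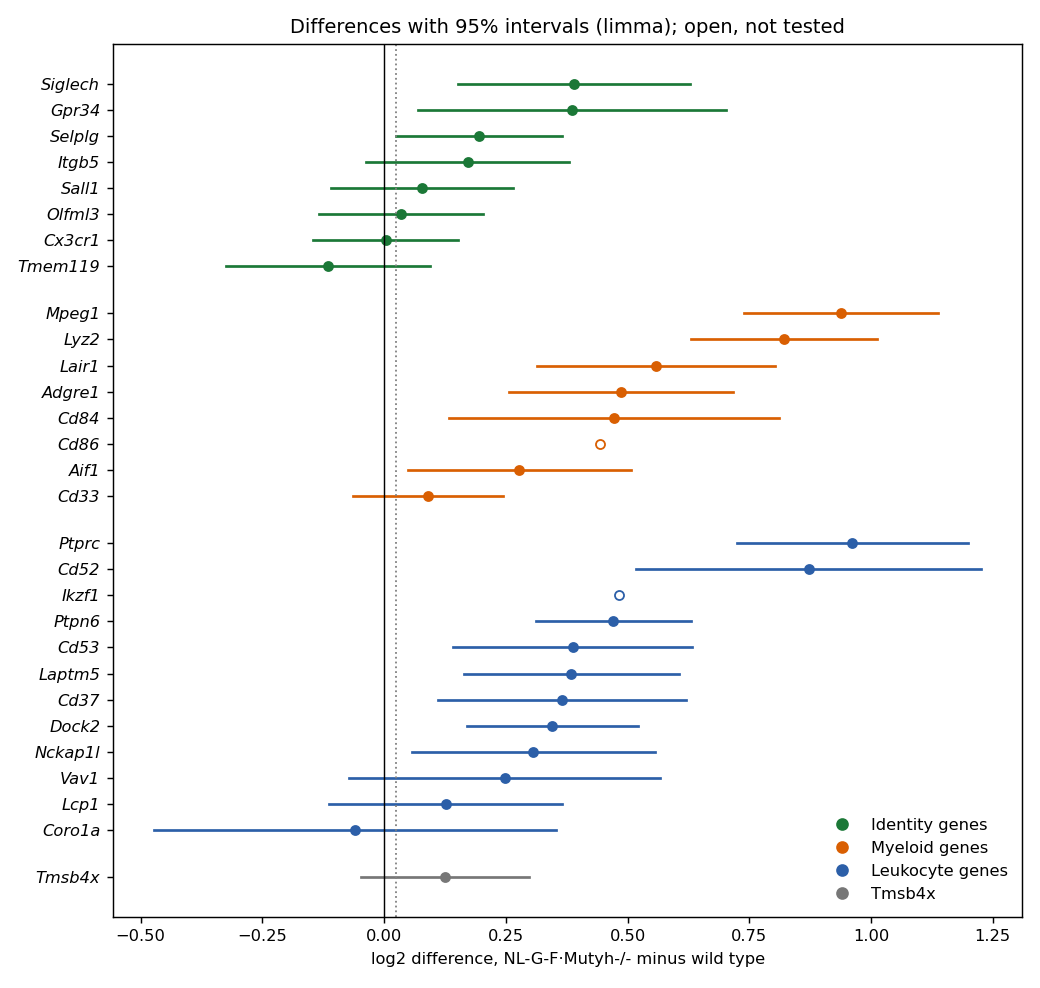
Log2 difference of each gene, NL-G-F·*Mutyh*-/- minus wild type (horizontal axis), with limma's 95% intervals for the 27 tested genes, unadjusted for their number, and open circles for *Cd86* and *Ikzf1*, which were not tested. The dotted line is the median over all tested transcript clusters, 0.02, and 6 myeloid and 4 leukocyte genes lie to the right of the highest identity gene, *Siglech* at 0.39.

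*Ptprc*, encoding the leukocyte common antigen CD45, was 6.26, 6.49, and 6.32 in NL-G-F·*Mutyh*-/- mice and 5.50, 5.44, and 5.24 in wild-type mice. It had the largest difference of the set (0.96, 95% interval 0.72 to 1.20) and missed the adjusted threshold narrowly (adjusted *p* = 0.0507, limma), passing it with array weights (0.0267) and when only transcript clusters with 1 symbol were tested (0.0112), over a range of 0.0112 to 0.375 in all settings. All 3 wild-type values lay below the intensity minimum, so it was tested through the NL-G-F·*Mutyh*-/- mean alone and the size of its difference is uncertain. *Cd52*, encoding a short glycosylphosphatidylinositol-anchored peptide, was 6.33, 6.33, and 6.07 in NL-G-F·*Mutyh*-/- mice and 5.09, 5.40, and 5.63 in wild-type mice. The same limit applied to it, and wild-type mice spread over more than the gap of 0.44 between the groups (0.87, standard error 0.15, adjusted *p* = 0.167, limma). *Laptm5*, encoding a lysosomal membrane protein of haematopoietic cells, was at 131% of wild type with a wild-type mean just under the minimum (5.99 ± 0.04 in NL-G-F·*Mutyh*-/- mice and 5.61 ± 0.15 in wild-type mice, mean ± SD, n = 3 each).

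The tetraspanin genes of the list had differences of similar size. *Cd53* was 7.75, 7.63, and 7.92 in NL-G-F·*Mutyh*-/- mice and 7.48, 7.25, and 7.40 in wild-type mice, and *Cd37* was 7.66, 7.70, and 7.48 in NL-G-F·*Mutyh*-/- mice and 7.21, 7.11, and 7.43 in wild-type mice. Neither overlapped between the groups, and the differences were 0.39 and 0.37 (adjusted *p* = 0.234 and 0.266, limma). *Ptpn6*, encoding the phosphatase SHP-1 that acts downstream of inhibitory receptors such as LAIR1 and CD33, was 6.94, 7.00, and 6.87 in NL-G-F·*Mutyh*-/- mice and 6.44, 6.47, and 6.48 in wild-type mice. The wild-type mice agreed to within 0.04 and the gap to the NL-G-F·*Mutyh*-/- mice was 0.39. The difference of 0.47 (standard error 0.07) had an adjusted *p* of 0.113 and, like that of *Ptprc*, passed with array weights (0.0476) and among transcript clusters with 1 symbol (0.0404; limma, range over all settings 0.0404 to 0.389).

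The actin regulators of leukocytes divided. *Dock2*, encoding an exchange factor that activates Rac, was 5.93, 5.95, and 5.79 in NL-G-F·*Mutyh*-/- mice and 5.56, 5.58, and 5.50 in wild-type mice. The groups were apart, with wild-type values under the intensity minimum (127% of wild type, adjusted *p* = 0.183, limma). *Nckap1l*, encoding the haematopoietic subunit HEM1 of the WAVE complex, was 7.08, 7.05, and 6.86 in NL-G-F·*Mutyh*-/- mice and 6.85, 6.67, and 6.55 in wild-type mice, so that the nearest mice of the 2 groups nearly touched. *Vav1*, encoding another Rac exchange factor, was 6.22, 6.21, and 5.93 in NL-G-F·*Mutyh*-/- mice and 6.12, 5.72, and 5.79 in wild-type mice. Its groups overlapped (0.25, 95% interval −0.07 to 0.57), as did those of *Lcp1*, encoding the actin-bundling L-plastin, at 109% of wild type (0.13, 95% interval −0.11 to 0.37).

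*Coro1a*, encoding the actin-binding coronin 1A, was 8.24, 8.01, and 7.56 in NL-G-F·*Mutyh*-/- mice and 8.14, 7.97, and 7.89 in wild-type mice. It had the widest spread of the set among NL-G-F·*Mutyh*-/- mice (SD 0.34), and the difference, −0.06, was 0.13 when replicate 3 of these mice was left out and −0.21 when replicate 1 was. Neurons also express this gene, as is known for the brain. *Tmsb4x*, with the same limit, was at 109% of wild type with overlapping groups (0.12, 95% interval −0.05 to 0.30). NL-G-F·*Mutyh*-/- replicate 3 was the lowest of its group for 8 of the 12 leukocyte genes, *Vav1*, *Dock2*, *Nckap1l*, and *Cd52* among them, and for 5 of the 8 identity genes. It was the highest of its group for 8 genes, *Siglech*, *Gpr34*, *Aif1*, *Cd86*, and *Cd53* among them, so it was not low throughout.

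**Figure D3:**
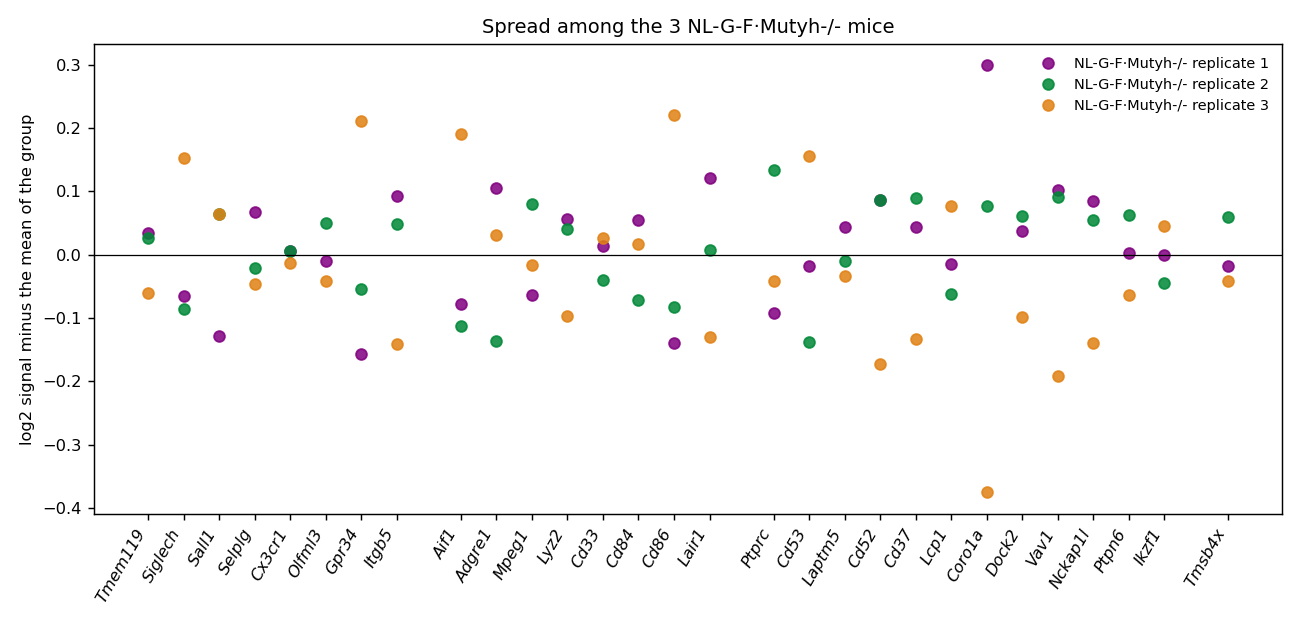
Log2 signal of each NL-G-F·*Mutyh*-/- mouse minus the mean of its group (vertical axis) for the 29 genes, in the order of the 3 lists and *Tmsb4x*, with replicates by colour. Replicate 3 lies lowest for *Coro1a*, *Vav1*, *Cd52*, and *Nckap1l* and highest for *Gpr34*, *Aif1*, and *Cd86*.

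To set identity genes against leukocyte genes within each mouse, the lists were averaged per array. The identity mean was 7.52, 7.54, and 7.56 in NL-G-F·*Mutyh*-/- mice and 7.46, 7.39, and 7.34 in wild-type mice. The leukocyte mean was 6.70, 6.69, and 6.58 in NL-G-F·*Mutyh*-/- mice and 6.32, 6.22, and 6.21 in wild-type mice, and the myeloid mean was 6.63, 6.58, and 6.65 in NL-G-F·*Mutyh*-/- mice and 6.11, 6.12, and 6.11 in wild-type mice. Every list mean was thus higher in each NL-G-F·*Mutyh*-/- mouse than in any wild-type mouse, by a narrow margin for the identity list. Its nearest mice, replicate 1 of each group, had array medians of 5.65 (NL-G-F·*Mutyh*-/-) and 5.55 (wild type) over all transcript clusters. These medians lay further apart than the identity means, so centring on them removes the identity separation. Medians over tested transcript clusters, 7.21 and 7.19, lay closer together than the identity means. The leukocyte mean moved by 0.26 more than the identity mean between the groups, and the myeloid mean by 0.37 more. These are descriptions with no test, since the genes are not replicates and were chosen with results of these data known.

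Part of the 0.26 rested on genes with low wild-type signals. Of the 12 leukocyte genes, 5 had a wild-type mean below the intensity minimum (*Ptprc*, *Laptm5*, *Cd52*, *Dock2*, and *Ikzf1*), against 1 of the 8 myeloid genes and 0 of the 8 identity genes. Only genes whose means passed the minimum in both groups were then kept, a choice made after seeing the data. Their leukocyte mean moved by 0.12 more than their identity mean. The within-array difference of these means overlapped between the groups, with NL-G-F·*Mutyh*-/- replicate 3 below wild-type replicates 1 and 3. Of the genes kept, 4 of 7 leukocyte, 6 of 7 myeloid, and 3 of 8 identity genes were higher at an unadjusted *p* under 0.05. Across the 29 genes, differences were larger where the wild-type mean was lower (Pearson's *r* = −0.57, Spearman's *ρ* = −0.63), a description over genes that share the same 6 arrays, and in which the wild-type mean enters both measures.

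Genes of the same kinds outside the set did not show the same contrast. Of 16 measured other homeostatic microglial genes, all tested, 8 were higher and 0 lower at an unadjusted *p* under 0.05, beside 8.88% higher and 4.75% lower of all tested transcript clusters, with a median difference of 0.25, and 0 passed the adjusted test. Of 24 measured other leukocyte genes, 17 were tested, 6 were higher and 0 lower against the same shares, with a median difference of 0.19 over those measured, and 0 passed the adjusted test. Between the groups the other leukocyte mean moved by 0.02 more than the other homeostatic mean, and the within-array difference of these lists overlapped between the groups, again with no test. The smallest *p* of the homeostatic genes were those of *Golm1*, encoding a Golgi membrane protein (0.39, standard error 0.07), *Csf1r* (0.31), and *Lag3*, encoding an immune checkpoint receptor (0.55). Those of the leukocyte genes were *Itgb2*, encoding the integrin subunit CD18 (0.54, standard error 0.08), *Spi1* (0.41), and *Nfam1*, encoding an activating receptor with an ITAM motif (0.50), whose wild-type mean was under the intensity minimum. *Spi1*, the gene of PU.1, was 6.39, 6.50, and 6.38 in NL-G-F·*Mutyh*-/- mice and 6.09, 5.96, and 5.98 in wild-type mice, apart in every mouse (adjusted *p* = 0.167, limma).

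**Figure D4:**
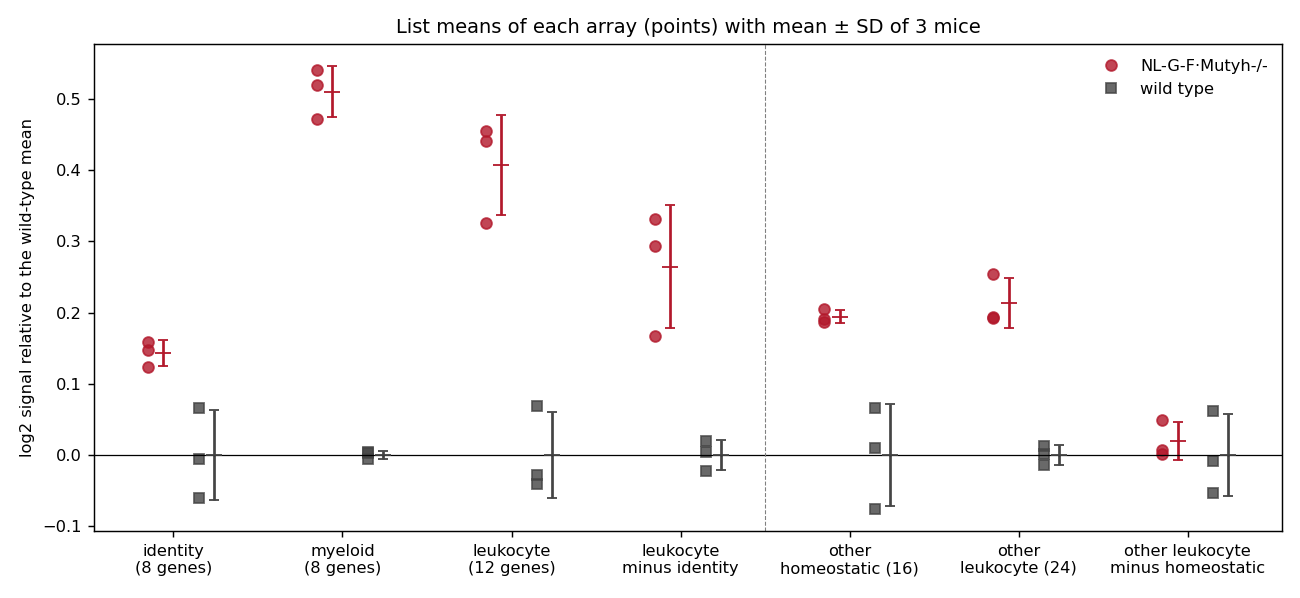
Mean log2 signal of each list in each array, relative to the wild-type mean of that list (vertical axis), with NL-G-F·*Mutyh*-/- mice as circles left of wild-type mice as squares, and the mean ± SD of 3 mice beside them. The leukocyte minus identity value separates the groups for the 31-gene set. It overlaps when only genes above the intensity minimum in both groups are kept (not drawn). The same value for other genes of both kinds, right of the dashed line, also overlaps.

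Other blood cells were looked for through their own markers. None of the 7 measured T cell, 4 B cell, and 6 neutrophil markers reached the intensity minimum in either group. *Cd3e*, encoding a subunit of the T cell receptor complex, was 5.30 ± 0.09 in NL-G-F·*Mutyh*-/- mice and 4.82 ± 0.05 in wild-type mice (mean ± SD, n = 3 each), below it and without overlap, and *Cd3d* and *Cd3g* were also without overlap, at lower signals. The groups overlapped for the remaining 4 T cell markers, *Cd4* (0.14), *Cd8a* (0.03), *Cd5* (0.01), and *Cd2* (−0.07). Summed intensities of the T cell markers ran from 207 to 231 in NL-G-F·*Mutyh*-/- mice and from 194 to 200.1 in wild-type mice. Those of the B cell markers ran from 119 to 120 in NL-G-F·*Mutyh*-/- mice and from 105 to 120 in wild-type mice. Those of the neutrophil markers ran from 92.2 to 112 in NL-G-F·*Mutyh*-/- mice and from 104 to 113 in wild-type mice. The natural killer markers ran from 157 to 170 in NL-G-F·*Mutyh*-/- mice and from 176 to 196 in wild-type mice, with *Nkg7* and *Prf1* tested and neither higher (−0.14 and −0.46). *Prf1* was lower without overlap at an unadjusted *p* of 0.0045 (adjusted *p* = 0.212, limma). At an unadjusted *p* under 0.05, 4.75% of all tested transcript clusters were lower.

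Of 5 monocyte markers, *Ly6c2* alone was tested (0.33, adjusted *p* = 0.272, limma), and only through its mean in NL-G-F·*Mutyh*-/- mice, as its wild-type mean of 5.39 was under the minimum. The summed intensity ran from 156 to 163 in NL-G-F·*Mutyh*-/- mice and from 136 to 154 in wild-type mice. *Ccr2*, the receptor gene that defines inflammatory monocytes, was at 4.05 ± 0.11 in NL-G-F·*Mutyh*-/- mice and 4.30 ± 0.04 in wild-type mice, and *Chil3*, a gene of monocytes and macrophages, at 4.42 ± 0.26 in NL-G-F·*Mutyh*-/- mice and 3.70 ± 0.08 in wild-type mice, all below the minimum (mean ± SD, n = 3 each). Of 7 markers of border macrophages, which line vessels and meninges, 4 were tested. *Lyve1* and *Cbr2* passed the minimum in both groups, with differences of 0.21 (adjusted *p* = 0.325, limma) and 0.06. *Mrc1* (0.34) and *F13a1* (0.26) had wild-type means under the minimum and were tested only through NL-G-F·*Mutyh*-/- mice, and the groups overlapped for *F13a1*. Their summed intensity ran from 330 to 365 in NL-G-F·*Mutyh*-/- mice and from 282 to 330 in wild-type mice. The part of T cells, monocytes, and border macrophages in the leukocyte and myeloid differences was not tested. Of the markers of other brain cells, 0 of 6 for neurons (median difference 0.01) and 0 of 5 for astrocytes (median 0.10) passed an unadjusted *p* under 0.05. Lower at that threshold were 3 of 4 oligodendrocyte markers, the myelin genes *Mog* (−0.28), *Cnp* (−0.24), and *Mbp* (−0.18), and 1 of 5 endothelial markers, the tight junction gene *Cldn5* (−0.43), where 4.75% of all tested transcript clusters were lower. None of these passed the adjusted test (adjusted *p* from 0.274 to 0.361, limma).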

How the data were processed

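Hippocampal RNA of 6 mice was hybridized to GeneChip Mouse Gene 2.0 ST arrays. The deposited values, which the authors made with Transcriptome Analysis Console 4.0, are log2 signals, 1 per transcript cluster and array, and were used as given. How signals were summarized and normalized, and on which genome build, is not given in the sources used here. Detection calls were not used. Gene symbols came from the platform annotation, with 23521 of 41345 rows carrying 1 symbol. Groups were compared with limma 3.58.1 (R 4.3.3) with Benjamini-Hochberg adjustment over all tested transcript clusters, and the fit was checked on simulated data. Errors of differences are moderated standard errors. Intervals are limma's 95% intervals. The 3 animals per group limit the precision.

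The 31 genes, their division into lists, and the other lists were chosen with earlier results of these data known. The text describes each measured gene of the set, the 3 other homeostatic and 3 other leukocyte genes with the smallest *p*, and the tested markers of other blood and border cells. Markers of other brain cells are given as counts, with those under an unadjusted *p* of 0.05 named. T cell markers, *Ccr2*, and *Chil3* were named after their values had been seen. Promoter windows came from RefSeq (GRCm38.p6), and *Adgre1*, *Cd52*, *Cd86*, *Gpr34*, *Nckap1l*, *Selplg*, and *Tmem119* had no entry. Alternatives covered the intensity minimum, rows with 1 symbol, quantile normalization, centring, an intensity trend with a robust prior, array weights, a replicate block, averaging the transcript clusters of each gene, and each array left out.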

Additional observations from a re-analysis of the deposited data

How the results depend on the processing

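The number of genes of the set higher at an adjusted *p* under 0.05 (limma), 2 as deposited, was 4 with array weights and with rows of 1 symbol, 1 with quantile normalization, with each array centred on its median over all transcript clusters, or with an intensity trend and robust prior, and 0 with no intensity minimum. With 1 array left out it was 0 in every case. At an unadjusted *p* under 0.05, 13 to 20 genes were higher and 0 lower in every setting. Over all tested transcript clusters that split was 65.1% higher as deposited, 39.2% with arrays centred on their medians, and 50.4% with quantile normalization, in both of which 14 genes of the set were higher. No replicate pairing could be shown, as deviations of same-numbered mice correlated by −0.10 to 0.02. With a replicate block 0 genes passed the adjusted test and 16 the unadjusted one. The cause of these changes was not tested.

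The median difference of the identity genes was 0.075 with arrays centred on their medians. That of the myeloid genes was 0.44 with quantile normalization and 0.43 with centring or array weights, and ran from 0.45 to 0.53 with 1 array left out. With genes above the minimum in both groups, chosen after seeing the data, the leukocyte median was 0.31. The excess of the leukocyte over the identity difference was then 0.12, and its within-array values overlapped between the groups. Over all genes that excess, 0.26, ran from 0.23 to 0.31 with 1 array left out. Without wild-type replicate 3, 1 gene, *Tmem119*, was lower without overlap (0 to 1 with 1 array left out). The sign changed in 1 or more settings for *Cx3cr1*, *Olfml3*, and *Coro1a*, and *Tmem119* stayed negative while the other 25 genes stayed positive. Of the 29 genes, 6 had a wild-type mean under the intensity minimum.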
